A study of Mus musculus with 10 samples.

Results

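Ribosomal protein genes encode the proteins of the cytosolic ribosome, and 86 of the 32285 genes in the single-cell count tables carry their names. A gene was included when its symbol is Rpl or Rps followed by a digit or by p0, p1 or p2, or is Rpsa. Pseudogene symbols that end in -ps and the Rps6k kinases were left out, and no measured value was used to choose a gene. The set holds 4 genes on the X chromosome (Rpl10, Rpl36a, Rpl39 and Rps4x) and several paralogues, among them Rpl10l, Rpl39l, Rpl36al, Rpl22l1, Rps27l, Rpl7l1 and Rpl3l. It also takes in Rps19bp1, whose product binds a ribosomal protein and is not one.

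The study profiled testes of mice that lack SMARCA5, an ISWI chromatin remodeler, in the germ line. The single-cell part holds 2 samples of whole testis that carry Smarca5 fl/delta together with Ddx4-Cre+ and are called Smarca5 cKO, each from an input of 15000 cells, and no other genotype, so single-cell values describe cKO testes and are compared between cell classes only. The Cre is driven by Ddx4, a germ cell gene, so the somatic cells keep the floxed allele beside the deleted one. The chromatin part holds 8 ATAC libraries of 50000 sorted cells each: 2 of cKIT+ cells of cKO testes, 2 of cKIT+ cells of wild type C57BL6 testes, 2 of cKO cells sorted on 4C DNA content, which the labels name as pachytene spermatocytes, and 2 of such cells of wild type C57BL6 testes. No age is given, and for cKIT+ libraries the sorting text describes both sorts. The labels do not tie replicates to separate animals, and p-values then measure only the spread between these samples, which may be technical.

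A ribosome joins a large subunit, whose proteins are named Rpl, and a small subunit, whose proteins are named Rps, around ribosomal RNA. Spermatogonia divide and grow, spermatocytes pass through meiosis, and spermatids shed most of their cytoplasm while their chromatin is packed with protamines. During the pachytene stage the X and Y chromosomes are transcriptionally silenced, a process known as meiotic sex chromosome inactivation. Several X-linked genes have autosomal copies made by retroposition, and Rpl10l and Rpl39l are known as testis-enriched copies of Rpl10 and Rpl39.

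Many ribosomal protein mRNAs begin with a C followed by a run of pyrimidines, the 5′ terminal oligopyrimidine motif through which growth signals control their translation. The 3 X-linked genes with a copy and their copies are printed here because each copy stands at another locus with a promoter of its own. Each line gives 30 bases around the annotated start, in RefSeq sequence of build GRCm38.p6. Capitals mark the longest run of a C and at least 4 further C or T bases whose first C lies within 10 bases of the annotated start.
Rpl10, chrX:74270801-74270830, plus strand: gttgttacagtggaagataggccgcctata
Rpl10l, chr12:66284387-66284416, minus strand: tttggCCTCCattttgcggctggcggtggg
Rpl39, chrX:37085208-37085237, minus strand: cctaagctccgcctctagcgaCTTCTTCTa
Rpl39l, chr16:10170213-10170242, plus strand: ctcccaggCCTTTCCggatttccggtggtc
Rpl36a, chrX:134585639-134585668, plus strand: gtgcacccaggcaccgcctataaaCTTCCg
Rpl36al, chr12:69184053-69184082, minus strand: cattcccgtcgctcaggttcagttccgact
Rpl10 and Rpl36al had no such tract in this window, while Rpl39, Rpl39l, Rpl36a and Rpl10l had one. A promoter sequence was matched for 66 of the 86 genes. Of these, 38 (57.6%) had the tract, against 5142 of 16481 other protein-coding genes (31.2%). The letters CCGGAAG, the core that ETS factors bind, were found on either strand of the 300-base promoter in 25 of the 66 (37.9%), against 2008 of the others (12.2%). AAGATGG, the core that YY1 binds, was found in 10 of the 66 (15.2%), against 1049 of the others (6.36%). The median GC content of the 300 bases was 57.5% in the ribosomal protein genes and 57.0% in the others, so base composition was close. A match here is a run of letters and not a measured binding site.

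Sample 1 listed 987771 barcodes and 63605819 UMIs (unique molecular identifiers, each standing for 1 captured mRNA), and sample 2 listed 17744 barcodes and 115830234 UMIs. After filters on depth, mitochondrial RNA and doublets, 7413 cells of sample 1 and 12933 of sample 2 remained, with a median of 3678 and 4333 UMIs per cell, and 27 barcodes occurred in both samples. Clusters were made without the ribosomal protein genes and without genes of X, Y and the mitochondrial genome, so that neither the share of ribosomal protein mRNA nor the X-linked members could shape them. By markers, 6826 and 12588 cells fell into 9 classes: differentiating spermatogonia-like (349 and 477 cells in samples 1 and 2), leptotene or zygotene-like (544 and 1532), pachytene or diplotene-like (1852 and 3538), round spermatid-like (1939 and 2799), elongating spermatid-like (940 and 1846), Sertoli-like (347 and 552), Leydig-like (638 and 1452), macrophage-like (160 and 257) and stromal-like cells (56 and 120). The classes are written without "like" from here on. A further cluster of 587 and 345 cells, led by Gml, Gml2 and Stambp, stayed unnamed. The targeted gene Smarca5 is measured here by 3′ tags, which need not lie in the deleted part, and no wild-type cells are at hand; it had 324 and 205 CPM (UMIs of a gene scaled to counts per 1000000 UMIs of the class) in spermatogonia and 358 and 329.6 CPM in leptotene or zygotene cells, and 47.1 and 38.95 CPM in pachytene or diplotene cells.

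Some germ cell clusters stood apart in RNA content, and they bear on the results that follow. In 5 germ cell clusters, Malat1, a long RNA kept in the nucleus, made up at least 0.2% of UMIs in both samples. In the 2 such clusters among pachytene or diplotene cells, ribosomal protein genes held 0.720 to 0.844% of UMIs in sample 1 and 0.739 to 0.910% in sample 2, against 5.31 to 7.48% and 6.61 to 8.91% in the other 4 clusters of that class. In round spermatids the 2 Malat1-rich clusters had 1.56 to 2.71% and 2.39 to 3.86%, against 4.11 to 5.23% and 4.56 to 6.40% in the other 4, and the single such cluster of leptotene or zygotene cells had 2.95 and 2.00%. The mitochondrial share of the pachytene or diplotene pair was 5.15 to 5.16% in sample 1 and 4.62 to 4.71% in sample 2, against 0.845 to 1.92% and 0.289 to 1.21% in the other 4. The Malat1-rich clusters held 19 of 544 leptotene or zygotene cells in sample 1 (3.49%) and 218 of 1532 in sample 2 (14.2%). They held 172 of the pachytene or diplotene cells in sample 1 (9.29%) and 1415 in sample 2 (40.0%), and 457 of the round spermatids in sample 1 (23.6%) and 380 in sample 2 (13.6%). No spermatogonia and no elongating spermatids were in them. Results are therefore also given without these clusters, a choice made after seeing the data.

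**Figure D1:**
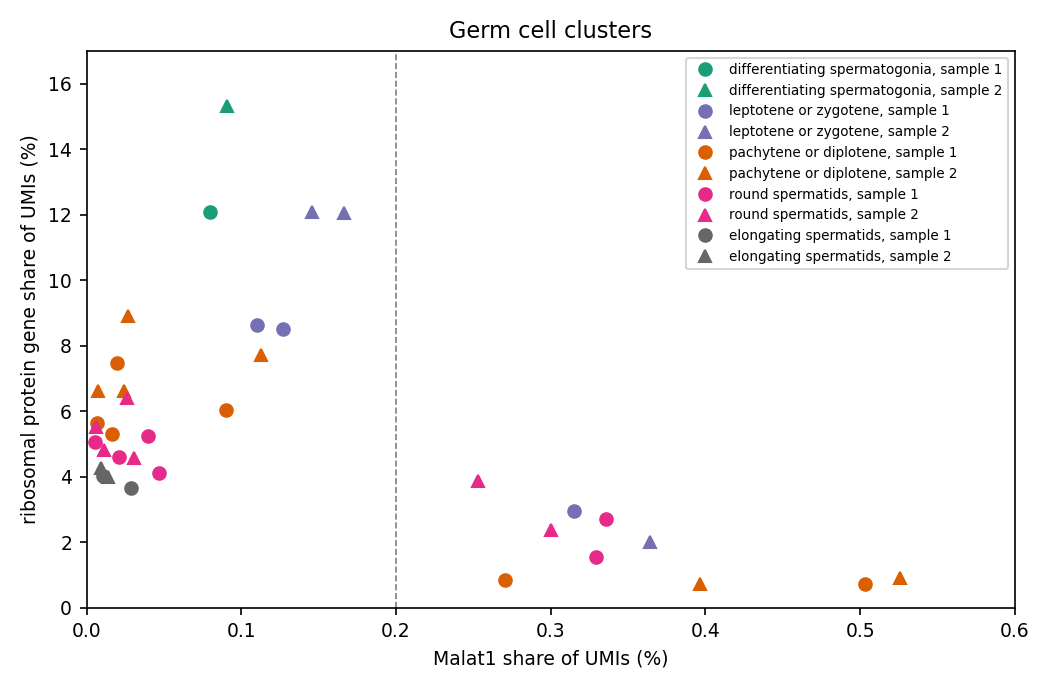
Share of UMIs from the 86 ribosomal protein genes (vertical axis, %) against the share from Malat1 (horizontal axis, %) in each germ cell cluster and sample; circles are sample 1, triangles are sample 2, colours are the classes and the dashed line is at 0.2%. The points right of the line reach at most 3.86%, and the lowest point left of it lies at 3.65%.

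The share of pooled UMIs from ribosomal protein genes was largest in spermatogonia and smaller in each later germ cell class. It was 12.1% in sample 1 and 15.3% in sample 2 in differentiating spermatogonia, 8.38 and 10.9% in leptotene or zygotene cells, 5.91 and 6.43% in pachytene or diplotene cells, 4.48 and 5.08% in round spermatids, and 3.85 and 4.09% in elongating spermatids. At each of the 4 steps, both samples of the later class lay below both samples of the earlier class in this pooled share. With doublets kept, samples overlapped at the first step, at 11.2 and 13.1% in spermatogonia and 8.46 and 11.6% in leptotene or zygotene cells. They also overlapped at the last step, at 4.55 and 5.12% in round spermatids and 4.56 and 4.49% in elongating spermatids. As a mean over single cells the share was 5.81 and 4.67% in pachytene or diplotene cells, 3.91 and 4.73% in round spermatids and 3.89 and 4.12% in elongating spermatids, so that these 3 classes overlapped. Counting error was small beside this: the exact Clopper-Pearson 95% interval ran from 12.02 to 12.15% in spermatogonia of sample 1, and from 3.83 to 3.86% in elongating spermatids of sample 1. Without the Malat1-rich clusters the share was 8.58 and 12.1% in leptotene or zygotene cells, 6.09 and 7.35% in pachytene or diplotene cells, and 4.70 and 5.15% in round spermatids.

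Among somatic cells, Sertoli cells had a share of 5.36 and 5.92%, Leydig cells 9.23 and 9.87%, macrophages 7.997 and 8.84% and stromal cells 6.62 and 8.40%. Sertoli cells were the lowest somatic class in both samples and lay between round spermatids and the other somatic cells. One small Sertoli cluster, of 14 and 115 cells, was also rich in Malat1 (0.618 and 0.4995% of UMIs) and had a share of 2.01 and 2.99%, against 5.498 and 6.16% in the main Sertoli cluster. Leydig cells too had over 0.2% Malat1, at 0.548 and 0.260%. The larger macrophage cluster had 0.879 and 0.524% Malat1 beside a ribosomal protein share of 7.26 and 9.77%. Stromal cells had 0.184 and 0.695% Malat1. Somatic clusters were left in throughout, so the runs without Malat1-rich clusters took out germ cells alone. Barcodes of sample 1 with 10 to 100 UMIs, which mostly hold free RNA, had a share of 5.64%. Germ cell RNA was present in somatic classes: protamine and transition protein genes made up 5.23 and 4.45% of UMIs in Sertoli cells and 1.75 and 0.382% in stromal cells, against 11.9 and 12.3% in elongating spermatids. The part of that RNA in the somatic shares was not tested.

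**Figure D2:**
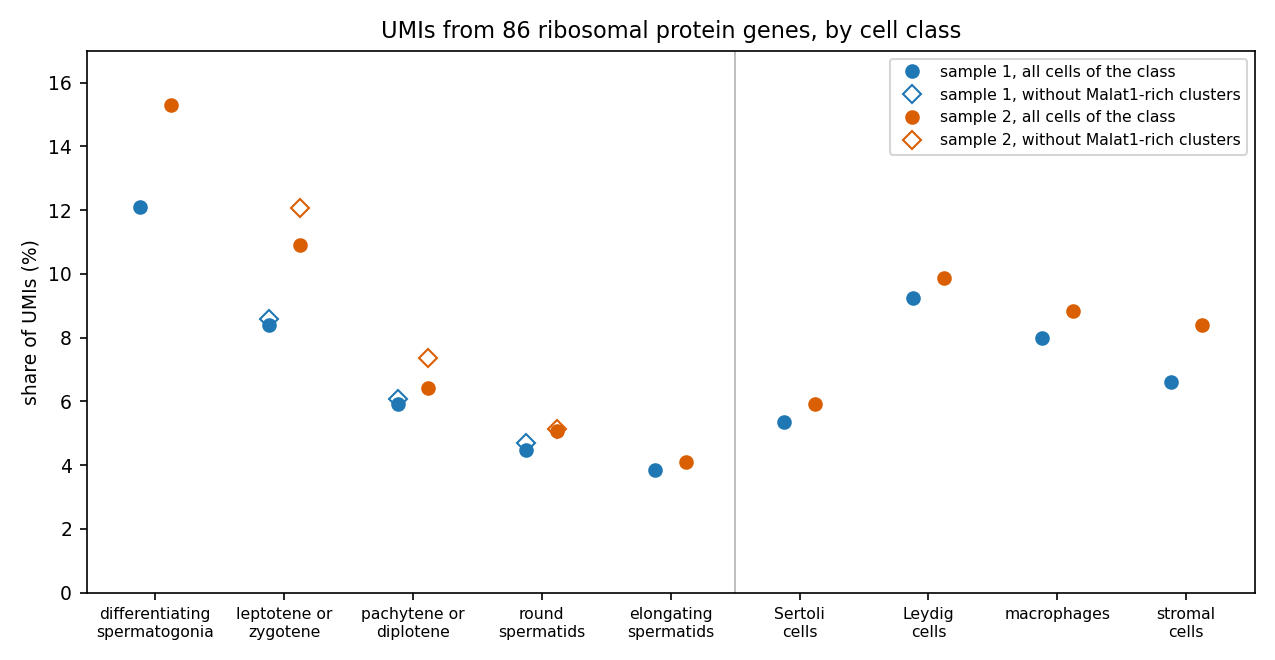
Share of UMIs from the 86 ribosomal protein genes (vertical axis, %) in 5 germ cell and 4 somatic classes; filled points are all cells of a class in each of the 2 samples, and open diamonds leave out the Malat1-rich clusters. Germ cell classes run from 12.1 and 15.3% in spermatogonia to 3.85 and 4.09% in elongating spermatids.

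A smaller share did not go with fewer ribosomal protein mRNAs captured per cell at every step. Spermatogonia had 316 and 473 UMIs of these genes per cell beside 2299 and 2617 UMIs of all other genes. Pachytene or diplotene cells had 481 and 618 beside 7652 and 9003, and elongating spermatids had 183 and 318 beside 4584 and 7469. Pachytene or diplotene cells thus exceeded spermatogonia in ribosomal protein UMIs per cell in both samples while their share was less. UMIs per cell also depend on capture in each droplet, which was not measured.

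Both subunits followed the same course in pooled UMIs. Large-subunit genes held 6.57 and 8.31% of UMIs in spermatogonia, 4.54 and 5.81% in leptotene or zygotene cells, 3.49 and 3.82% in pachytene or diplotene cells, 2.64 and 3.00% in round spermatids and 2.16 and 2.30% in elongating spermatids. Small-subunit genes held 5.51 and 6.97%, 3.84 and 5.07%, 2.41 and 2.60%, 1.85 and 2.09%, and 1.68 and 1.78% in the same order of classes. Each subunit's share was lower in both samples of each later class than in both samples of the class before it.

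Single genes followed the total with few exceptions. Of the 86 genes, 72 had their highest mean CPM among germ cell classes in spermatogonia. Another 11 peaked in leptotene or zygotene cells (Rpl7, Rpl23, Rpl31, Rpl39, Rps12, Rps20, Rps27, Rps27l, Rps28, Rps29 and Rps19bp1). The remaining 3 are paralogues: Rpl10l peaked in pachytene or diplotene cells, and Rpl39l and Rpl22l1 in round spermatids. For Rpl39l the 2 classes were nearly level and the samples disagreed. It had 1453 and 1329 CPM in round spermatids, against 1404 and 1373 CPM in pachytene or diplotene cells. Relative to spermatogonia, the median gene stood at -0.48 on the log2(CPM + 1) scale in leptotene or zygotene cells, -1.20 in pachytene or diplotene cells, -1.69 in round spermatids and -2.07 in elongating spermatids. In elongating spermatids 83 of the 86 stood below spermatogonia, and the exceptions were Rps20, Rpl39l and Rpl22l1. These counts were not made over all genes, many of which also fell in CPM. From leptotene or zygotene to pachytene or diplotene cells, 50% of all genes were lower in both samples without overlap and 29.3% higher. From round to elongating spermatids 55.6% were lower and 17% higher. How far the counts are particular to ribosomal protein genes was not tested.

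**Figure D3:**
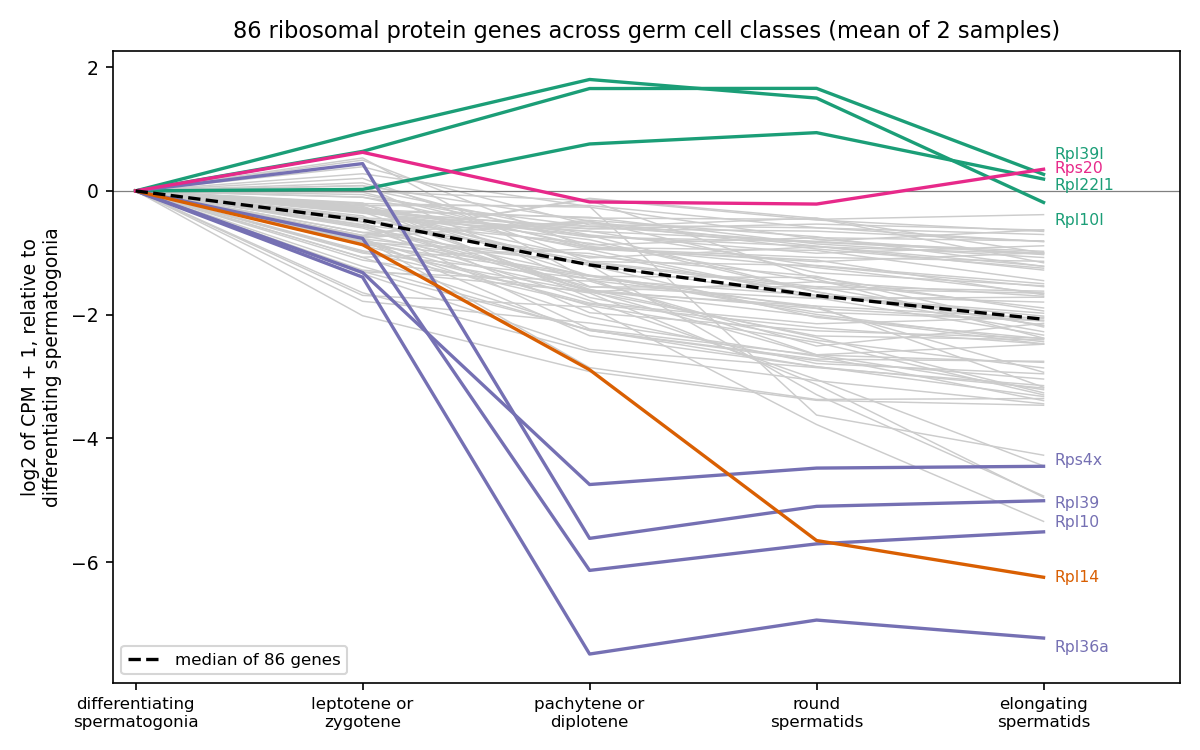
Level of each of the 86 genes in 5 germ cell classes as log2(CPM + 1) relative to differentiating spermatogonia (vertical axis, mean of 2 samples); grey lines are single genes, the dashed line is their median and named genes are coloured. The median reaches -2.07 in elongating spermatids, the X-linked genes drop between leptotene or zygotene and pachytene or diplotene cells, and Rpl10l, Rpl39l and Rpl22l1 stand above 0 in pachytene or diplotene cells.

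The leading genes of the pool changed by stage. Rpl13 led spermatogonia of sample 2 with 4967 CPM. Rps24 led leptotene or zygotene cells with 3329 and 3859 CPM, Rpl13 led pachytene or diplotene cells with 2549 and 3224 CPM and round spermatids with 1849 and 2467 CPM, and Rps20 led elongating spermatids with 2647 and 2517 CPM. Rps20 then supplied 6.88 and 6.16% of all ribosomal protein UMIs. The pool also grew more uneven: the 10 most abundant genes held 26.3 and 23.8% of ribosomal protein UMIs in spermatogonia and 36.0 and 35.9% in elongating spermatids. UMIs are 3′ tags counted once per molecule, so these levels do not scale with transcript length.

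The 4 X-linked genes were nearly absent from pachytene or diplotene cells, after being well detected in leptotene or zygotene cells. Levels within the earlier class were uneven: all 4 were lower in its cluster led by Rad51ap2 than in that led by Sdk1. Rpl36a had 52.6 and 128 CPM in the former, against 358 and 369 CPM in the latter. Rpl36a and Rps4x were also called in leptotene or zygotene cells over spermatogonia, which had 596 and 493 CPM and 134 and 193 CPM. The Rps4x call did not hold in every alternative. Rpl10, a large-subunit protein near the site where peptide bonds form, had 2.19 and 4.26 CPM in pachytene or diplotene cells, against 140.3 and 206 CPM in leptotene or zygotene cells. Rpl36a had 2.06 and 2.03 CPM in pachytene or diplotene cells, against 201 and 212 CPM in leptotene or zygotene cells. Rpl39, a small protein that lines the peptide exit tunnel, had 4.32 and 4.02 CPM in pachytene or diplotene cells, against 378 and 309 CPM in leptotene or zygotene cells. Rps4x, the only small-subunit gene of the 4, had 4.91 and 5.35 CPM in pachytene or diplotene cells, against 52.5 and 77.4 CPM in leptotene or zygotene cells. No value of the later class came near the earlier one in any of the 4 genes.

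These were the largest falls of that step among the ribosomal protein genes by edgeR's quasi-likelihood test on UMIs summed per sample and class (two-sided, Benjamini-Hochberg adjusted over 17958 genes). The log2 fold change was -6.17 (SE 0.41) for Rpl36a, -5.87 (SE 0.40) for Rpl39, -5.30 (SE 0.41) for Rpl10 and -3.15 (SE 0.38) for Rps4x, with adjusted p of 1.1e-16, 4.4e-16, 1.2e-14 and 1.5e-09 in that order. All 4 kept this direction and call in every alternative run. The levels in pachytene or diplotene cells lay below those of free RNA in sample 1, where Rpl10 had 23.2 CPM, Rpl36a 33.4, Rpl39 57.5 and Rps4x 53.8 CPM. The X-linked genes stayed low in round spermatids (2.88 to 8.40 CPM over the 4 genes and both samples) and in elongating spermatids (2.01 to 8.48 CPM). Their summed share was 0.00247 and 0.00171% of UMIs in round spermatids and 0.00221 and 0.00210% in elongating spermatids, against 0.00135 and 0.00157% in pachytene or diplotene cells.

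In spermatogonia, before that step, 3 of the 4 X-linked genes were present at levels below those of Leydig cells and macrophages. Rps4x had 134 and 193 CPM in spermatogonia, against 1500 and 1812 CPM in Leydig cells and 1167 and 1376 CPM in macrophages. Rpl10 had 216 and 376 CPM in spermatogonia, against 924 and 1172 CPM in Leydig cells and 656 and 869 CPM in macrophages. Rpl39 had 251 and 254 CPM in spermatogonia, against 1264 and 804 CPM in Leydig cells and 869 and 636 CPM in macrophages. Rpl36a was the exception, with 596 and 493 CPM in spermatogonia, against 543 and 381 CPM in Leydig cells, so that the ranges overlapped, and 409.7 and 247 CPM in macrophages, below both samples of spermatogonia. Sertoli cells had less of all 4 than Leydig cells, with 32.3 and 110.4 CPM for Rpl10, and the part of germ cell RNA in that was not tested.

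The autosomal copies of 3 of these genes were counted at 149 CPM or more in pachytene or diplotene cells, where their X-linked partners had at most 4.32 CPM. Rpl10l had 49.3 and 38.0 CPM in spermatogonia, 99.0 and 70.9 CPM in leptotene or zygotene cells, 160.1 and 149 CPM in pachytene or diplotene cells, 127 and 123 CPM in round spermatids and 42.4 and 34.1 CPM in elongating spermatids. Rpl39l was about an order of magnitude more abundant, with 447 and 434 CPM, 700.4 and 672 CPM, 1404 and 1373 CPM, 1453 and 1329 CPM, and 530.4 and 530.0 CPM in the same order of classes. Rpl36al had 582 and 585 CPM, 371 and 338 CPM, 561 and 513 CPM, 445 and 412 CPM, and 286 and 235 CPM. Rpl10l and Rpl39l thus rose into pachytene and were lower again in elongating spermatids, whereas Rpl36al, the widely expressed copy of Rpl36a, varied less. Free RNA of sample 1 held 121.5 CPM of Rpl10l, 1243 of Rpl39l and 570.4 of Rpl36al. Rpl10l and Rpl39l lay above those levels in pachytene or diplotene cells and round spermatids and below them in the other 3 classes, and Rpl36al lay above its level in spermatogonia alone. The part of free RNA in these levels was not tested.

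In the pachytene or diplotene over leptotene or zygotene comparison the log2 fold change was 1.37 (SE 0.31, adjusted p = 0.00019) for Rpl10l, 1.504 (SE 0.34, adjusted p = 0.00021) for Rpl39l and 1.09 (SE 0.31, adjusted p = 0.0029) for Rpl36al. Those calls were lost where cells needed 2000 UMIs, with 0.20 for Rpl10l, 0.43 for Rpl39l and 0.50 for Rpl36al. They were also lost where clusters were cut at a finer resolution, with 0.28 for Rpl10l, 0.55 for Rpl39l and 0.50 for Rpl36al. In both of these runs a cluster led by Gml and Gml2 was named leptotene or zygotene, so that class held other cells. In the main run the cluster led by these genes stayed unnamed, with 226 and 188 CPM of Rpl10l and 1434 and 1530 CPM of Rpl39l. The part of this change in the lost calls was not tested. Over spermatogonia, leptotene or zygotene cells already had more Rpl10l (log2 fold change 1.24, SE 0.34, adjusted p = 0.0045) and more Rpl39l (0.93, SE 0.34, adjusted p = 0.035), although the Rpl39l call was lost with DESeq2, without the replicate block, with doublets kept and with the unnamed cluster counted in. The fall of Rpl10l in elongating over round spermatids was -1.04 (SE 0.30, adjusted p = 0.0048), and DESeq2 gave -0.64, which did not pass.

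**Figure D4:**
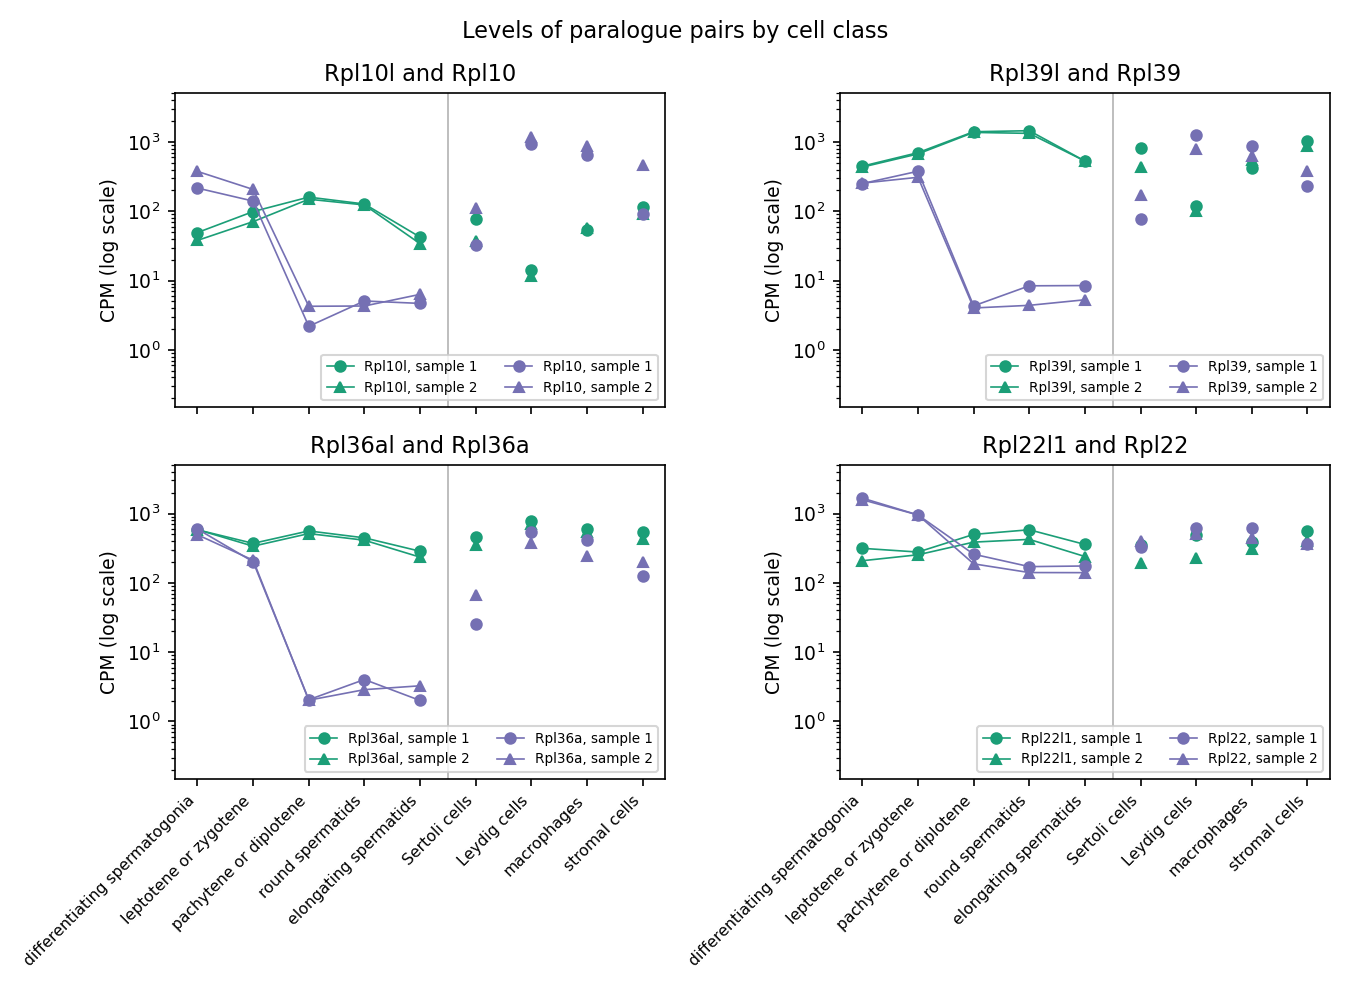
Levels of 4 paralogues (green) and their partners (violet) as CPM on a log scale (vertical axis) in 5 germ cell classes, joined by lines, and 4 somatic classes; circles are sample 1 and triangles are sample 2. Rpl10, Rpl39 and Rpl36a drop to between 2.03 and 4.32 CPM in pachytene or diplotene cells, where Rpl10l, Rpl39l and Rpl36al stand at 149 to 1404 CPM.

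As shares of each pair, the copies took over almost entirely. Rpl10l made up 18.6 and 9.18% of the UMIs of Rpl10l and Rpl10 in spermatogonia and 41.4 and 25.6% in leptotene or zygotene cells. It made up 98.6 and 97.2% in pachytene or diplotene cells, 96.2 and 96.6% in round spermatids and 90.0 and 84.3% in elongating spermatids. The exact 95% interval was 98.1 to 99.1% in pachytene or diplotene cells of sample 1 and 85.2 to 93.7% in elongating spermatids of sample 1, where only 190 UMIs of Rpl10l and 21 of Rpl10 were counted. In Leydig cells Rpl10l made up 1.52 and 0.998% of the pair, so that the pair was nearly all Rpl10 there.

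Rpl39l already exceeded Rpl39 in spermatogonia, at 64.1 and 63.0% of the pair, and in leptotene or zygotene cells, at 65.0 and 68.5%. It reached 99.7% in both samples in pachytene or diplotene cells, 99.4 and 99.7% in round spermatids and 98.4 and 99.0% in elongating spermatids, against 8.56 and 11.3% in Leydig cells. Rpl36al made up 49.4 and 54.2% of its pair in spermatogonia, 64.8 and 61.4% in leptotene or zygotene cells and 98.6 to 99.6% in the 3 later classes, against 59.0 and 65.0% in Leydig cells. Rpl36al was therefore a major part of its pair in somatic cells too. Reads that match both genes of a pair could not be followed in these files.

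In Sertoli and stromal cells the testis copies were also seen, and so was other germ cell RNA. Rpl39l had 828 and 439 CPM in Sertoli cells and 1036 and 877 CPM in stromal cells, both below free RNA of sample 1. Rpl10l had 76.7 and 37.1 CPM in Sertoli cells, and 116 and 90.9 CPM in stromal cells, again below free RNA. Within each of these classes the sample with the larger share of protamine RNA also had more Rpl10l and Rpl39l. Between the classes the order was the reverse. Stromal cells had more Rpl10l and Rpl39l than Sertoli cells, and less protamine and transition protein RNA (1.75 and 0.382% of UMIs, against 5.23 and 4.45%). The part of free RNA in these somatic levels was not tested.

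Counted by cell, Rpl10l was rare in any single droplet. With every cell thinned to 1000 UMIs it was seen in 4.87 and 3.14% of spermatogonia, 8.09 and 5.42% of leptotene or zygotene cells, 15.1 and 10.9% of pachytene or diplotene cells, 10.3 and 11.2% of round spermatids and 3.83 and 2.93% of elongating spermatids, against 1.25 and 1.24% of Leydig cells. All cells had at least that depth, so none was left out. Without thinning it was seen in 59.6 and 49.7% of pachytene or diplotene cells, at a median of 7340 and 5712.5 UMIs per cell, and in 3.76 and 4.20% of Leydig cells, at a median of 2386 and 3971.5 UMIs. Rpl39l was seen, after thinning, in 68.7 and 50.1% of pachytene or diplotene cells and 63.1 and 62.9% of round spermatids, against 10.3 and 7.37% of Leydig cells.

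Other paralogues behaved differently from the copies of X-linked genes. Rpl22l1 and its partner Rpl22, an RNA-binding protein of the large subunit, are both autosomal and crossed over in meiosis. Rpl22 had 259 and 188 CPM in pachytene or diplotene cells, against 953 CPM in leptotene or zygotene cells of both samples. Rpl22l1 had 499.5 and 386 CPM in pachytene or diplotene cells, against 278 and 254 CPM in leptotene or zygotene cells. The log2 fold changes were -1.61 for Rpl22 (SE 0.31, adjusted p = 2e-05) and 1.20 for Rpl22l1 (SE 0.31, adjusted p = 0.0010). Rpl22l1 made up 15.9 and 11.7% of its pair in spermatogonia, 22.6 and 21.0% in leptotene or zygotene cells, 65.9 and 67.3% in pachytene or diplotene cells, 77.3 and 75.1% in round spermatids and 67.2 and 63.1% in elongating spermatids.

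Rps27l, a paralogue known as a p53 target in human cells, ran the other way. It had 791 and 688 CPM in spermatogonia, 1062 and 1079 CPM in leptotene or zygotene cells, 308 and 234 CPM in pachytene or diplotene cells, 225 and 179 CPM in round spermatids and 94.6 and 67.5 CPM in elongating spermatids. Its share of the pair with Rps27 was 52.2 and 45.1% in spermatogonia and 17.1 and 11.9% in elongating spermatids. Its call in leptotene or zygotene cells over spermatogonia (log2 fold change 0.83, adjusted p = 0.035) was lost with library totals, no filter, no replicate block, 2000 UMIs, the finer resolution and the unnamed cluster counted in. It fell into pachytene (-1.501, adjusted p = 5e-05) under every alternative run.

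Rpl7l1, a protein of large-subunit assembly, declined from stage to stage, with 109.6 and 155 CPM in spermatogonia, 78.3 and 95.3 CPM in leptotene or zygotene cells, 37.0 and 39.0 CPM in pachytene or diplotene cells, 14.01 and 16.2 CPM in round spermatids and 6.47 and 3.76 CPM in elongating spermatids. Rpl3l, known from striated muscle, was barely present, at 4.38 and 8.82 CPM in spermatogonia, where it rested on 4 UMIs in sample 1, and at most 2.93 CPM elsewhere. Rps27rt had between 3.90 and 15.3 CPM in every germ cell class.

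The first step of the series, leptotene or zygotene cells over differentiating spermatogonia, moved genes of both subunits in both directions. Rps2 had 569 and 701 CPM in leptotene or zygotene cells, against 2167 and 2981 CPM in spermatogonia (log2 fold change -1.72, SE 0.32, adjusted p = 5.3e-05). Rps3 had 384 and 525 CPM, against 1120 and 1816 CPM in spermatogonia (-1.39, SE 0.32, adjusted p = 0.00075). The Rps3 call was lost at 2000 UMIs (-0.73). Both proteins sit in the 40S subunit, and the values of each gene did not overlap between the classes. Rps20, also of the 40S subunit, had 2737 and 3504 CPM in leptotene or zygotene cells, against 1855 and 2195 CPM in spermatogonia (0.91, SE 0.33, adjusted p = 0.034), a call lost without the replicate block, at 2000 UMIs, at the finer resolution and with the unnamed cluster counted in. The large-subunit paralogues Rpl10l and Rpl39l were higher at this step too.

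At that step 8 genes had both samples of leptotene or zygotene cells above both samples of spermatogonia in CPM and 49 had both below; over all 17958 genes tested this held for 30.1% and 31.9%. The edgeR test called 4 genes higher and 12 lower, where 16.6% of all genes were higher and 12% lower. The median log2 fold change was -0.19 over the 86 genes and 0.28 over all genes. The scaling set much of this count: scaled by library totals, 3 were higher and 37 lower (10.0% and 14.6% of all genes), with medians of -0.48 and 0.03. DESeq2 called 5 higher and 40 lower (11.5% and 14.1% of all genes), with medians of -0.41 and 0.04. In each of the 3 scalings the median of the ribosomal protein genes lay below that of all genes.

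The second step, pachytene or diplotene over leptotene or zygotene cells, held the largest changes of single genes. Besides the X-linked genes, Rpl22 and Rps27l, the test called Rpl14 lower, with 277 and 286 CPM in pachytene or diplotene cells against 948 and 1343 CPM in leptotene or zygotene cells (log2 fold change -1.51, SE 0.33, adjusted p = 0.00015). Rps28 followed, with 641 and 891 CPM in pachytene or diplotene cells against 1701 and 3055 CPM in leptotene or zygotene cells (-1.11, SE 0.31, adjusted p = 0.0026), which was lost at 2000 UMIs (-0.68). Higher were the paralogues Rpl10l, Rpl39l, Rpl22l1 and Rpl36al, and also Rpl24 (1.09) and Rps13 (0.78). Neither Rpl24 nor Rps13 kept its call at 2000 UMIs or at the finer resolution, and that of Rps13 was also lost with library totals, without the replicate block and with doublets kept. In CPM, 6 genes were higher without overlap and 64 lower, where 29.3% and 50% of all genes were. The edgeR test called 6 higher and 18 lower, beside 25.9% and 29.1% of all genes. Library totals gave 5 higher and 54 lower, beside 19.8% and 38.4% of all genes, and DESeq2 7 higher and 51 lower, beside 22.0% and 36.0%. The median of the 86 genes was close to that of all genes in each scaling: -0.21 and -0.22 with edgeR's factors, -0.70 and -0.70 with library totals, and -0.52 and -0.55 with DESeq2. With other cells in the classes it was not always close. It was lower at the finer resolution (-0.53 and -0.32), with doublets kept (-0.60 and -0.34) and, over 85 genes, at 2000 UMIs (-0.32 and -0.10). It was higher without the Malat1-rich clusters (-0.29 and -0.43) and with the unnamed cluster counted in (0.07 and 0.00).

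In the third step, round spermatids over pachytene or diplotene cells, a few genes fell far more than the rest. Rpl14 had 40.3 and 41.1 CPM in round spermatids, against 277 and 286 CPM in pachytene or diplotene cells (log2 fold change -2.65, SE 0.35, adjusted p = 5.1e-09). Rps27a, which is made as a fusion with ubiquitin, had 283 and 267 CPM in round spermatids, against 1288 and 1067 CPM in pachytene or diplotene cells (-1.94, SE 0.33, adjusted p = 1.7e-06). Rps3 had 91.9 and 120.5 CPM in round spermatids, against 351 and 447 CPM in pachytene or diplotene cells (-1.76, SE 0.32, adjusted p = 4.2e-06). Rps19bp1, the one gene here whose product is not a ribosomal protein, fell further than any other, to 5.08 and 5.01 CPM in round spermatids, against 60.4 and 62.7 CPM in pachytene or diplotene cells (-3.48, SE 0.34, adjusted p = 1.6e-12). Rpl36a was the single gene called higher (0.89, SE 0.37, adjusted p = 0.035), at 4.03 and 2.88 CPM in round spermatids, below its level in free RNA, and it lost the call in 6 of the alternatives.

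In CPM, 5 of the 86 genes were higher in round spermatids without overlap and 57 lower, beside 38.2% and 43.7% of all genes. The edgeR test called 1 higher and 14 lower, beside 33.5% and 30.5% of all genes, library totals 0 higher and 36 lower, beside 31.2% and 33.5%, and DESeq2 14 higher and 14 lower, beside 36.7% and 23.9%. The median of the 86 genes stood below that of all genes in the 3 scalings, at -0.25 and 0.00, at -0.40 and -0.16, and at 0.04 and 0.29. Without the Malat1-rich clusters edgeR called 30 lower, beside 32.5% of all genes.

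The last step, elongating over round spermatids, split the genes. Rps20 had 2647 and 2517 CPM in elongating spermatids, against 1730 and 1765 CPM in round spermatids (log2 fold change 1.25, SE 0.33, adjusted p = 0.0020). Rpl41, the smallest ribosomal protein, had 1205 and 1107 CPM in elongating spermatids, against 1014 and 1018 CPM in round spermatids (0.88, SE 0.32, adjusted p = 0.024). Rps15 had 133 and 188 CPM in elongating spermatids, against 122 and 164 CPM in round spermatids, so that the CPM ranges overlapped (0.86, SE 0.30, adjusted p = 0.020). The calls of Rpl41 and Rps15 were lost with library totals (0.18 and 0.16), without the filter and without the replicate block, that of Rpl41 also with doublets kept and the unnamed cluster counted in, and that of Rps15 also at 2000 UMIs, while Rps20 kept its call in every alternative run. Lower were Rpl4, with 39.5 and 17.9 CPM in elongating spermatids against 122.6 and 85.7 CPM in round spermatids (-1.24, SE 0.32, adjusted p = 0.0014), Rps27a, with 118 and 57.2 CPM against 283 and 267 CPM in round spermatids (-1.01), and Rps3, with 38.6 and 31.8 CPM against 91.9 and 120.5 CPM in round spermatids (-0.88). With doublets kept the direction turned for Rps27a (0.43) and Rps3 (0.30), and the call of Rpl4 was lost (-0.05). At the finer resolution the calls of Rps27a (-0.59) and Rps3 (-0.37) were lost, and that of Rps3 also without the replicate block.

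The count at this step turned with the scaling. In CPM, 5 genes were higher without overlap and 47 lower, beside 17% and 55.6% of all genes. The edgeR test called 7 higher and 5 lower, beside 18.9% and 20.4%. Library totals gave 1 higher and 26 lower, beside 10.6% and 39.3%, and DESeq2 gave 67 higher and 3 lower, beside 26.7% and 12.4%. The median over all genes was -0.06 with edgeR's factors, -0.75 with library totals and 0.35 with DESeq2, and the median of the 86 genes lay above it by a similar amount in each, at 0.40, -0.29 and 0.79. These medians carry no test, and by calls with edgeR's factors or library totals a smaller part of the 86 genes than of all genes was higher. Protamine and transition protein mRNAs made up 11.9 and 12.3% of UMIs in elongating spermatids. With those and the mitochondrial genes left out of the total, elongating spermatids had a ribosomal protein share of 4.38 and 4.67% (mean 4.53%). Round spermatids then had 4.56 and 5.14% (mean 4.85%), so that the samples of the classes overlapped.

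Across the whole series, the stalk genes and Rpsa kept to the general course at different rates. Rplp0, Rplp1 and Rplp2 build the stalk of the large subunit, which recruits translation factors. Rplp0 had 1748 and 3004 CPM in spermatogonia and 959.5 and 1292 CPM in elongating spermatids, so its samples differed more than most. Rplp2 had 1804 and 2204 CPM in spermatogonia, 727 and 856 CPM in leptotene or zygotene cells, 320.3 and 356 CPM in pachytene or diplotene cells, 257 and 295 CPM in round spermatids and 210.0 and 240.5 CPM in elongating spermatids. Rplp1 had 620.4 and 789 CPM in pachytene or diplotene cells, against 1309 and 2334 CPM in leptotene or zygotene cells (log2 fold change -0.83, SE 0.31, adjusted p = 0.023), a call lost without the filter, without the replicate block and with the unnamed cluster counted in. The 3 genes of the stalk were thus not held in a fixed ratio: Rplp2 was as abundant as Rplp0 in spermatogonia of sample 1 and far below it in elongating spermatids. Rpsa, which also serves as a laminin receptor, had 558 and 906 CPM in leptotene or zygotene cells, against 1345 and 2272 CPM in spermatogonia (-1.01, SE 0.31, adjusted p = 0.012), which was lost without the replicate block.

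Set against somatic cells as a whole, germ cells differed most in the X-linked genes. Averaged over 5 germ cell classes and set against the average of 4 somatic classes, the log2 fold change was -4.99 (SE 0.18) for Rps4x, -3.89 (SE 0.18) for Rpl10, -3.82 (SE 0.17) for Rpl39 and -3.18 (SE 0.17) for Rpl36a, with adjusted p of 5.5e-27, 3e-23, 1.1e-23 and 7.8e-21 in that order. Among the autosomal genes the largest fall was that of Rpl14 (-1.32, SE 0.16, adjusted p = 1.5e-09), which had 33.7 and 19.5 CPM in elongating spermatids against 862 and 1134 CPM in Leydig cells. Called higher were Rpl39l (0.98), Rpl10l (0.84), Rps20 (0.47), Rps28 (0.39) and Rpl3l, which had at most 1 UMI in any somatic class of a sample. At 2000 UMIs the calls of Rps20 and Rps28 were lost, and that of Rps28 also without the replicate block. Of the 86 genes, 19 had the germ cell mean CPM above the somatic mean in both samples without overlap and 15 below, beside 49.8% and 26.3% of all genes. The edgeR test called 5 higher and 22 lower, beside 17% and 26.4% of all genes. Library totals gave 6 and 35, beside 14.5% and 28.2%, and DESeq2 15 and 26, beside 20.8% and 28.7%. Without the Malat1-rich clusters, 51 were called higher and 8 lower, beside 31.2% and 21.4% of all genes. With those clusters in and doublets kept, 54 were higher and 6 lower, beside 29.2% and 21.3% of all genes.

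Genes that act with the ribosome, in lists chosen with earlier results of these data known, did not all share its course, and some may have been among the genes used for clustering. Fau, which encodes a ribosomal protein fused to a ubiquitin-like protein, passed no test in the 5 comparisons.

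Of the 41 ribosome biogenesis genes, more were called lower than higher at each step of the germ line. Over all genes, 16.6% were called higher and 12% lower at the first step, 25.9% and 29.1% at the second, 33.5% and 30.5% at the third and 18.9% and 20.4% at the last, and the counts of this and the next lists stand beside those shares. In edgeR's calls 1 was higher and 13 lower in leptotene or zygotene cells over spermatogonia, 7 and 19 in pachytene or diplotene over leptotene or zygotene cells, 1 and 18 in round spermatids over pachytene or diplotene cells, and 5 and 15 in elongating over round spermatids, with medians of -0.41, -0.49, -0.59 and -0.46. Their share of UMIs was 0.844 and 0.789% in spermatogonia and 0.0899 and 0.0707% in elongating spermatids. Fbl, the methyltransferase of ribosomal RNA, had 102 and 142 CPM in leptotene or zygotene cells, against 345 and 523 CPM in spermatogonia (-1.53). Ncl, the nucleolar protein nucleolin, had 45.8 and 28.6 CPM in pachytene or diplotene cells, against 1110.04 and 879 CPM in leptotene or zygotene cells (-4.27, adjusted p = 8.1e-14). Wdr12 went against the list at that step (2.09), as did Mrto4 (1.43) and Nop10 (1.31).

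Translation factors had calls in both directions at each step, while genes for mitochondrial ribosomal proteins had more calls lower than higher at the third and last steps. Of 45 translation factor genes, 7 were called higher and 6 lower in leptotene or zygotene cells over spermatogonia, 16 and 11 in pachytene or diplotene over leptotene or zygotene cells, 9 and 8 in round spermatids over pachytene or diplotene cells, and 11 and 8 in elongating over round spermatids. These counts turned with the scaling. At the last step library totals gave 8 higher and 26 lower, beside 10.6% and 39.3% of all genes. DESeq2 gave 18 higher and 6 lower there, beside 26.7% and 12.4% of all genes. The share of UMIs from translation factor genes was 1.92 and 2.08% in spermatogonia and 1.84 and 1.81% in elongating spermatids. Eif1, a start codon selection factor, had 5865 and 6009 CPM in elongating spermatids, against 2330 and 2453 CPM in round spermatids (2.01), and Rack1, a scaffold on the 40S subunit, had 65.9 and 75.8 CPM in round spermatids, against 296 and 337 CPM in pachytene or diplotene cells (-2.01). Of 78 genes for mitochondrial ribosomal proteins, 8 were higher and 10 lower at the first step, 28 and 15 at the second, 6 and 41 at the third and 6 and 29 at the last. At the first step library totals gave 6 higher and 23 lower, beside 10.0% and 14.6% of all genes. DESeq2 gave 7 and 24 there, beside 11.5% and 14.1%. At the second step library totals gave 16 higher and 26 lower, beside 19.8% and 38.4% of all genes. DESeq2 gave 24 and 21 there, beside 22.0% and 36.0%. At the third step library totals gave 6 and 52, beside 31.2% and 33.5%, and DESeq2 8 and 29, beside 36.7% and 23.9%. Mrpl24 had 469 and 478 CPM in pachytene or diplotene cells, against 174 and 163 CPM in leptotene or zygotene cells (1.98).

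Chromatin at the ends of these genes was open in nearly every ATAC library. A gene counted as open when a peak called by the authors in that library lay within 500 bp of an annotated gene end. Of the 86 genes, 80 were open in each cKIT+ cKO library and in each cKIT+ wild-type library, beside 63.8 and 62.3% of all 26296 genes in cKO and 49.3 and 61.4% in wild type. In 4C-sorted cells 81 were open in each cKO library and 80 in each wild-type library, beside 55.8 and 57.1% of all genes in cKO and 54.7 and 55.5% in wild type. In bulk libraries fewer cells with an open site and a less open site in each cell cannot be told apart, and the depth of these libraries is unknown.

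Few of these sites differed between the genotypes. In cKIT+ cells 79 genes were open at the same end in all 4 libraries (47.2% of all genes were), and no ribosomal protein gene had an end that was open in both cKO libraries and neither wild-type library or the reverse, beside 2.95% gained and 0.221% lost over all genes. Gains and losses were counted at each gene end, so a gene that is open at one end can be gained or lost at the other. The count of 0 changed when a library was left out: without wild-type library 2, 6 genes had an end gained and 2 an end lost, beside 16.7% and 1.18% of all genes, and without wild-type library 1, 3 had an end lost, beside 2.63%. In 4C-sorted cells 80 were open at the same end in all 4 libraries (50.1% of all genes were). Rps2 was gained in cKO, at its start, with the authors' fold enrichment at 2.54 and 2.52 in the cKO libraries, and Rps27 was lost, at its far end and not at its start, beside 1.53% gained and 0.943% lost over all genes. Without the 4C wild-type library 1, 3 genes had an end lost, beside 2.87% of all genes, and without the cKO library 1, 3 had an end gained, beside 4.103%. No test of the peaks was run, since the peak lists hold no counts. Peak fold enrichments come from lists called separately in each library and describe ranks within it.

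Within each library the X-linked genes can be set beside the autosomal ones by the authors' peak fold enrichment at the annotated start, which 66 of the 86 genes have in the promoter table. In 4C-sorted cKO cells the median over the 4 X-linked genes was 4.63 and 4.34, against 5.92 and 6.19 over autosomal genes. In 4C-sorted wild-type cells it was 3.76 and 3.62 for the X-linked genes, against 6.59 and 6.51 for autosomal genes. In cKIT+ cKO cells it was 8.33 and 8.11, against 8.32 and 8.31 for autosomal genes, and in cKIT+ wild-type cells 5.13 and 7.04, against 5.73 and 7.09 for autosomal genes. The medians hide genes that went both ways in cKIT+ cells. Counted from the lowest of 60 genes, Rps4x ranked 15 and 12 in cKIT+ cKO cells and 7 and 9 in cKIT+ wild-type cells, whereas Rpl36a ranked 38 and 51 in cKO cells and 57 and 50 in wild-type cells.

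Rpl10 did not follow the other X-linked genes in 4C-sorted wild-type cells. Among the 60 genes with a start peak there, counted from the lowest fold, Rps4x ranked 2 in both libraries, Rpl39 ranked 3 and 4, and Rpl36a ranked 4 and 3, while Rpl10 ranked 40 and 34 with a fold of 6.97 and 6.61. In 4C-sorted cKO cells, among 61 genes, Rps4x ranked 4 and 8, Rpl39 5 and 3, Rpl36a 14 and 4, and Rpl10 15 and 28. Rpl10 mRNA had been as scarce as that of the other X-linked genes in pachytene or diplotene cells of cKO testes. The copies had start peaks in all 8 libraries: Rpl10l had a fold of 6.43 and 5.67 in cKIT+ cKO cells and 3.87 and 4.28 in cKIT+ wild-type cells, and 5.70 and 6.19 in 4C-sorted cKO cells and 5.67 and 5.83 in 4C-sorted wild-type cells. The cKIT+ sort, which the series describes as one for spermatogonia, thus already held a start peak at Rpl10l, whose mRNA was highest in pachytene or diplotene cells. That peak ranked low among the 60 genes, at 7 and 5 in cKO cells and 4 and 2 in wild-type cells, counted from the lowest. With −log10 q of at least 5, Rpl10l had an end open in both cKIT+ cKO libraries and in neither cKIT+ wild-type library.

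**Figure D5:**
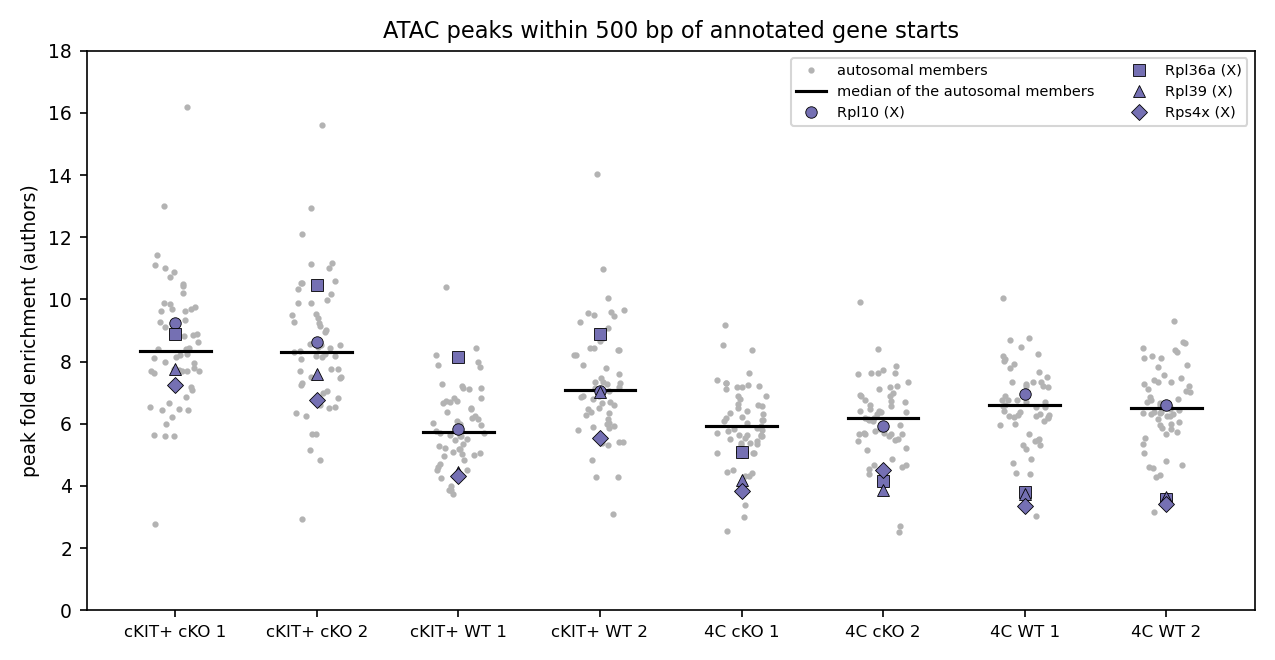
The authors' peak fold enrichment within 500 bp of annotated starts (vertical axis) in 8 ATAC libraries; grey points are autosomal ribosomal protein genes, black bars are their medians and violet symbols are the 4 X-linked genes. In the 4C-sorted wild-type libraries Rps4x, Rpl39 and Rpl36a lie between 3.34 and 3.79, below the medians of 6.59 and 6.51, and Rpl10 lies at 6.97 and 6.61.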

How the data were processed

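The members and the gene lists were chosen with earlier results of these data known. In the deposited single-cell files each value is a raw count of UMIs. The file headers give Cell Ranger 7.1.0 for sample 1 and 9.0.1 for sample 2, and the submitters' processing notes give mm10 and also name Seurat 4.1.0 with no role. The deposited ATAC peaks carry the authors' fold enrichment over local background, −log10 p, −log10 q and a score per peak. For ATAC those notes name cutadapt, Bowtie2 and MACS2 on mm10; their versions are not given in the sources used here. Peaks were called per library. No read totals accompany the peaks, so ATAC depth is unknown.

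Cells with at least 1000 UMIs, 500 genes and at most 10% mitochondrial UMIs were kept (8098 and 14262). Scrublet in scanpy 1.11.5 marked 685 and 1329 as doublets, which were removed. Cells were clustered by the Leiden method at resolution 1 on 30 components of 2000 variable genes, without the 86 members and the genes of X, Y and the mitochondrial genome. A cluster was named for 1 of 14 lists where at least 3 markers of that list were raised. It stayed unnamed where another list had more markers among the cluster's 10 leading genes. It also stayed unnamed where no marker of the list was among those genes and the cluster's median UMIs were low. UMIs were summed per sample and class (at least 50 cells in both samples) and tested with edgeR 4.0.16 (quasi-likelihood test, TMM factors, filterByExpr, the sample as a block), two-sided, with Benjamini-Hochberg adjustment over 17958 genes and a threshold of 0.05. All 86 members passed the filter on low counts, which counts all classes together. CPM is the count per 1000000 UMIs of the class in that sample. Intervals of shares are 95%, exact (Clopper-Pearson), and hold counting error alone.

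The sample number pairs classes because all classes of a sample come from 1 suspension. Between classes, the deviations of sample 2 from sample 1 correlated at -0.056 to 0.277, with a median of 0.102. On simulated counts for the pachytene or diplotene over leptotene or zygotene comparison (17645 genes), the test called 62% of genes changed 4-fold, 21% of those changed 2-fold and 6 of 17450 unchanged genes. Genes named in the text were the paralogues and partners, the X-linked genes, the stalk genes, Rpsa and, per comparison, up to 3 called members with the largest rise and 3 with the largest fall at a mean of at least 100 CPM. Some genes that this rule or the lists would name are not reported here. Rpl14, Rps28, Rps19bp1, Rpl24, Rps13, Rpl13 and Rps24 were named outside that rule where they led a count or a pool. Alternatives were library totals and DESeq2 1.42.0 for scaling, no filter, no block, doublets kept, a minimum of 2000 UMIs, resolution 2, each sample alone and, added after seeing the data, the unnamed cluster with pachytene or diplotene cells, the Malat1-rich clusters left out and gene starts only. Promoter sequences are RefSeq's, build GRCm38.p6.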

Additional observations from a re-analysis of the deposited data

How the results depend on the processing

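Counts of ribosomal protein genes called higher or lower depended on the scaling and on which cells made up a class, and the cause was not tested. In germ over somatic cells, against 5 higher and 22 lower, library totals gave 35 lower, DESeq2 15 higher, doublets kept 54 higher and 6 lower, a minimum of 2000 UMIs 2 higher, resolution 2 17 higher, and leaving out Malat1-rich clusters 51 higher and 8 lower. In leptotene or zygotene cells over spermatogonia, against 4 and 12, library totals gave 37 lower, DESeq2 40 lower, the fit without the replicate block 1 higher and 5 lower, doublets kept 8 higher, resolution 2 2 higher, and the unnamed cluster counted in 1 higher. In pachytene or diplotene over leptotene or zygotene cells, against 6 and 18, library totals gave 54 lower, DESeq2 51 lower, no replicate block 11 lower, doublets kept 48 lower, 2000 UMIs 1 higher, resolution 2 1 higher and 36 lower, and the unnamed cluster 11 lower. In round spermatids over pachytene or diplotene cells, against 1 and 14, library totals gave 0 higher and 36 lower, DESeq2 14 higher, no filter, no replicate block and the unnamed cluster 0 higher each, doublets kept 0 higher and 29 lower, 2000 UMIs 4 higher, resolution 2 3 higher, and leaving out Malat1-rich clusters 30 lower. In elongating over round spermatids, against 7 and 5, library totals gave 1 higher and 26 lower, DESeq2 67 higher and 3 lower, no filter 1 higher, no replicate block 1 higher and 3 lower, doublets kept 2 lower, 2000 UMIs 4 higher, resolution 2 35 higher and 2 lower, the unnamed cluster 2 higher, and leaving out Malat1-rich clusters 32 higher. Of 680 alternative values for 62 results of named genes, 592 kept direction and call (each sample alone gives a direction and no test), 82 kept direction only and 6 reversed: in germ over somatic cells, doublets kept gave 0.30 for Rpl4, 0.054 for Rpl7l1 and 0.031 for Rplp1, and leaving out Malat1-rich clusters gave 0.00063 for Rpl4; in elongating over round spermatids, doublets kept gave 0.43 for Rps27a and 0.30 for Rps3. The mean share of UMIs moved to 5.24% (mean over cells) and 6.72% (without Malat1-rich clusters) in pachytene or diplotene cells, 4.32% (mean over cells) in round spermatids, 4.53% (protamine and mitochondrial UMIs left out, and likewise doublets kept) in elongating spermatids, 6.04% in Sertoli cells and 10.04% in Leydig cells (protamine and mitochondrial UMIs left out), 8.35% in Leydig cells (doublets kept), 7.66% in macrophages (2000 UMIs) and 9.39% in stromal cells (resolution 2). Leaving out 1 ATAC library gave 0 to 3 members lost and 0 to 6 gained in cKIT+ cells, and 1 to 3 lost and 1 to 3 gained in 4C-sorted cells. With −log10 q of at least 5, 2 were gained in cKIT+ cells (Rpl10l and Rps19bp1) and 0 in 4C-sorted cells. Within 1000 bp, 1 was gained in cKIT+ cells, and 3 were gained and 0 lost in 4C-sorted cells; at starts only, 0 were lost in 4C-sorted cells. On simulated counts the test called 21% of 2-fold changes, so a gene without a call may still differ by that much.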
